A study of Mus musculus with 22 samples.

Results

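Cytosolic ribosomal protein genes encode the proteins, named Rpl for the large subunit and Rps for the small subunit, that assemble with ribosomal RNA into the ribosomes of the cytoplasm. Their expression was described in microglia, which are brain-resident macrophages. Members were chosen by gene symbol from the deposited table of 18072 genes. The symbol pattern found 85 genes, and 78 of them, 46 of the large and 32 of the small subunit, had a value of 10 or more normalized counts in at least 3 of the 22 libraries. A normalized count is a read count divided by the size factor of its library. The 7 genes below that rule were Rpl10l, Rpl23a, Rpl26, Rpl28, Rpl32l, Rpl3l and Rps28. Their medians over the 22 libraries ran from 0 for Rpl10l, Rpl26 and Rpl3l to 5.18 normalized counts for Rpl23a.

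RNA came from microglia sorted by flow cytometry from whole brain as CD11b+CD45lowLin- cells of untreated C57BL/6J mice of both sexes. Young adult animals were 6 to 10 weeks old (3 female and 3 male libraries), middle-aged animals 50 to 54 weeks (5 and 5) and aged animals 96 to 104 weeks (3 and 3). All groups shared the strain, the sort, the absence of treatment and the letters SPF in the sample titles, which the labels do not spell out. Nothing in the labels ties a library to a single animal, so p-values measure the spread between these libraries, and fewer cells of a type and less RNA per cell cannot be told apart. Libraries are named by group and replicate number.

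Ribosomal protein genes are among the most coordinated gene sets of the cell. As background, their promoters often carry a short run of pyrimidines at the start site, which becomes the terminal oligopyrimidine (TOP) tract at the 5′ end of the mRNA. Through this tract the kinase mTOR and the RNA-binding protein Larp1 control how strongly these mRNAs are stored or translated. Microglia, like other macrophages, are known to adjust ribosome and protein production with activation state.

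The start regions of members that the results below turn on are shown first. Each sequence runs 5′ to 3′ from 30 bases before the annotated first base through the first 20 bases of the transcript (RefSeq, GRCm38.p6, sense strand). Capitals mark the longest run of at least 8 pyrimidines that begins with C.
Rps9, chr7:3704011-3704060, plus strand: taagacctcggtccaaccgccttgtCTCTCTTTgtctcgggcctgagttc
Rpl14, chr9:120571487-120571536, plus strand: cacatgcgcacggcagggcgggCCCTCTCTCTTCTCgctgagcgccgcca
Rplp2, chr7:141447621-141447670, plus strand: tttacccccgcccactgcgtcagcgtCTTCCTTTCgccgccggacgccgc
Rpl13a, chr7:45128726-45128775, minus strand: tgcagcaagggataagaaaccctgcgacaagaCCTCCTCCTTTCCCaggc
Rps26, chr10:128626487-128626536, minus strand: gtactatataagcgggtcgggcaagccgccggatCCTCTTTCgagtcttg
Rpl37a, chr1:72711230-72711279, plus strand: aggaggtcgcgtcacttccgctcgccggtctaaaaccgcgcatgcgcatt
Rpl10, chrX:74270786-74270835, plus strand: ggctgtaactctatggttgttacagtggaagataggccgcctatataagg
Rps27, chr3:90213629-90213678, minus strand: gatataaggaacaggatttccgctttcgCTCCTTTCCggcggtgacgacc
Rps9, Rpl14, Rplp2, Rpl13a, Rps26 and Rpl37a were higher in aged than in young adult males, Rpl10 was lower, and Rps27 is a member with few reads. Promoter entries existed for 58 members, and 31 of them (53.4%) held such a run in this window, against 18.2% of all 27025 genes in the table. The letters CCGGAAG, searched on both strands over the 300 bases around the start, were found for 43.1% of these members and 9.93% of all genes. Of the members with an entry, 12 of the 21 that were higher in aged males held the run, as did 19 of the other 37.

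The depth of the libraries, as recovered from the deposited values, ran from 17.7 to 34.4 M reads. Members together took 0.158% to 0.310% of the counted reads of a library. How reads that match several places were counted is not stated, so this share may miss reads of members. The microglial marker list was present with all 10 genes and a summed level of 1224300 to 1839700 normalized counts. Other lists had lower sums in every library. Endothelial markers summed to 9973 to 16039, astrocyte markers to 4626 to 8277 and border-associated macrophage markers to 3154 to 8329. Oligodendrocyte markers summed to 1306 to 2337 and B cell markers, nearly all Cd79b, to 657 to 2058. T and NK cell markers (1 gene of 7 in the table) stayed at or below 19.97. Neutrophil markers (6 of 7 genes in the table) summed to 3486 in aged male 1, 5496 in aged male 4, 2276 in aged female 1 and 2902 in middle-aged female 2, and to at most 11.5 in the other 18 libraries. Middle-aged female 2 also had 42.4 normalized counts of the female-specific RNA Xist, against at least 2321 in the other 10 female libraries. Normalized totals of the 8 young adult and middle-aged male libraries were 20.7 to 22.4 M, and those of the other 14 were 23.1 to 24.4 M. The labels give no batch. Comparisons of aged with either younger group of males, and of females with males at young adult and middle age, cross this split. In the results below they had 31, 19, 21 and 11 members past the threshold, and the remaining comparisons of groups had 0 to 2. In the comparisons that cross it, age or sex cannot be told apart from this split, and its part was not tested.

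**Figure D1:**
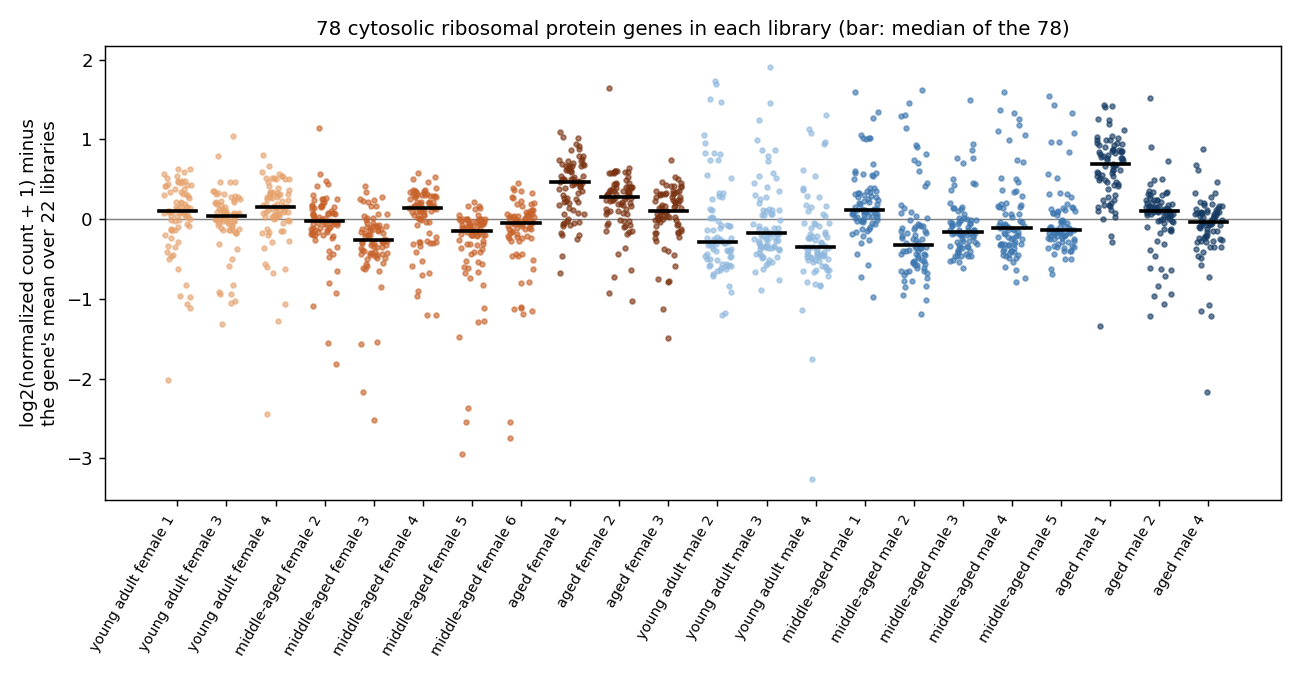
Each point is 1 of 78 ribosomal protein genes, plotted for each library as log2(normalized count + 1) minus that gene's mean over the 22 libraries, and the bar is the median of the 78. The bar lies at 0.69 in aged male 1, the highest library, and at -0.36 in young adult male 4, the lowest.

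Libraries differed in the share of their counted reads that was assigned to ribosomal protein genes. In young adult males 2, 3 and 4 the share of reads was 0.166%, 0.182% and 0.158%. It was 0.222%, 0.198% and 0.216% in young adult females 1, 3 and 4. In middle-aged animals it spanned 0.174% to 0.214% in females and 0.170% to 0.225% in males. Aged females 1, 2 and 3 had 0.257%, 0.227% and 0.214%, and aged males 1, 2 and 4 had 0.310%, 0.206% and 0.190%. No aged male library overlapped with the young adult males, and aged male 1 lay far above its own group.

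Aged male 1 had the highest median deviation of the members. It held the highest value of all 22 libraries for 46 of 78 members, and 74 members lay above their own median there, against 66 in aged female 1 and 63 in aged female 2. Aged female 1 came next, with the highest value for 8 members and a median deviation of 0.46 on the log2 scale. Aged male 1 and aged female 1 were also the shallowest libraries, with 17.9 and 17.7 M reads, and both carried neutrophil markers. Aged male 4 had the highest neutrophil sum of the series and a median deviation of -0.04, and middle-aged female 2 had a median deviation of -0.02. The part of depth or of these markers was not tested.

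The comparison of aged with young adult males covered the full age span in males and had the most members called. Its groups also lie on either side of the split in normalized totals. Of 78 members, 30 were higher and 1 was lower (limma, Benjamini-Hochberg adjusted p under 0.05 over 12552 genes). The background was 9.31% of all tested genes higher and 7.62% lower. The median log2 fold change was 0.54 over the members and -0.02 over all tested genes. Both subunits took part, with 16 of 46 large and 14 of 32 small subunit genes higher. In 43 members the libraries of the groups did not overlap, 38 higher and 5 lower, against 14.8% of all tested genes higher and 14.1% lower without overlap.

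The stalk proteins, which recruit the GTPase elongation factors to the ribosome, were among the called members. Rplp1 had 587, 556 and 673 normalized counts in young adult males 2, 3 and 4, and 1906, 1125 and 1062 in aged males 1, 2 and 4. Every aged male library lay above every young adult one. The log2 fold change was 1.12 ± 0.22 (SE, limma adjusted p = 0.00114). Its partner Rplp2 rose by 0.85 ± 0.25 (adjusted p = 0.0197) and the scaffold of the stalk, Rplp0, by 0.58 ± 0.13 (adjusted p = 0.00289).

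Small subunit genes were led by Rps20, which had 394, 415 and 326 normalized counts in young adult males and 1122, 694 and 593 in aged males. It rose by 1.04 ± 0.19 on the log2 scale (limma adjusted p = 4.60e-04). Rps9, the member with the highest level per kilobase of transcript, had 2305, 2759 and 2371 normalized counts in young adult males and 5667, 3691 and 3669 in aged males. These libraries did not overlap, and the log2 fold change was 0.78 ± 0.14 (adjusted p = 3.35e-04). Rps26, a protein near the exit of the mRNA channel, rose by 0.87 ± 0.25 (adjusted p = 0.0204) and Rps3, near its entry, by 0.54 ± 0.12 (adjusted p = 0.00445). Rps6, the substrate of the S6 kinases, had a log2 fold change of 0.11 ± 0.27 and did not pass (adjusted p = 0.836).

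Among large subunit genes Rpl32 had 800, 891 and 764 normalized counts in young adult males and 2375, 1343 and 1274 in aged males, again without overlap. It rose by 0.97 ± 0.19 on the log2 scale (limma adjusted p = 0.00130). Rpl14, Rpl38 and Rpl37a rose by 0.99 ± 0.20, 0.99 ± 0.34 and 0.94 ± 0.24. Rpl39, which lines the tunnel through which the new protein leaves, rose by 0.75 ± 0.26 (adjusted p = 0.0491). Rpl10, a late-joining protein close to the catalytic centre, went the other way. It had 132, 154 and 89.0 normalized counts in young adult males and 48.9, 18.7 and 18.6 in aged males, a log2 fold change of -2.20 ± 0.47 (adjusted p = 0.00244).

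**Figure D2:**
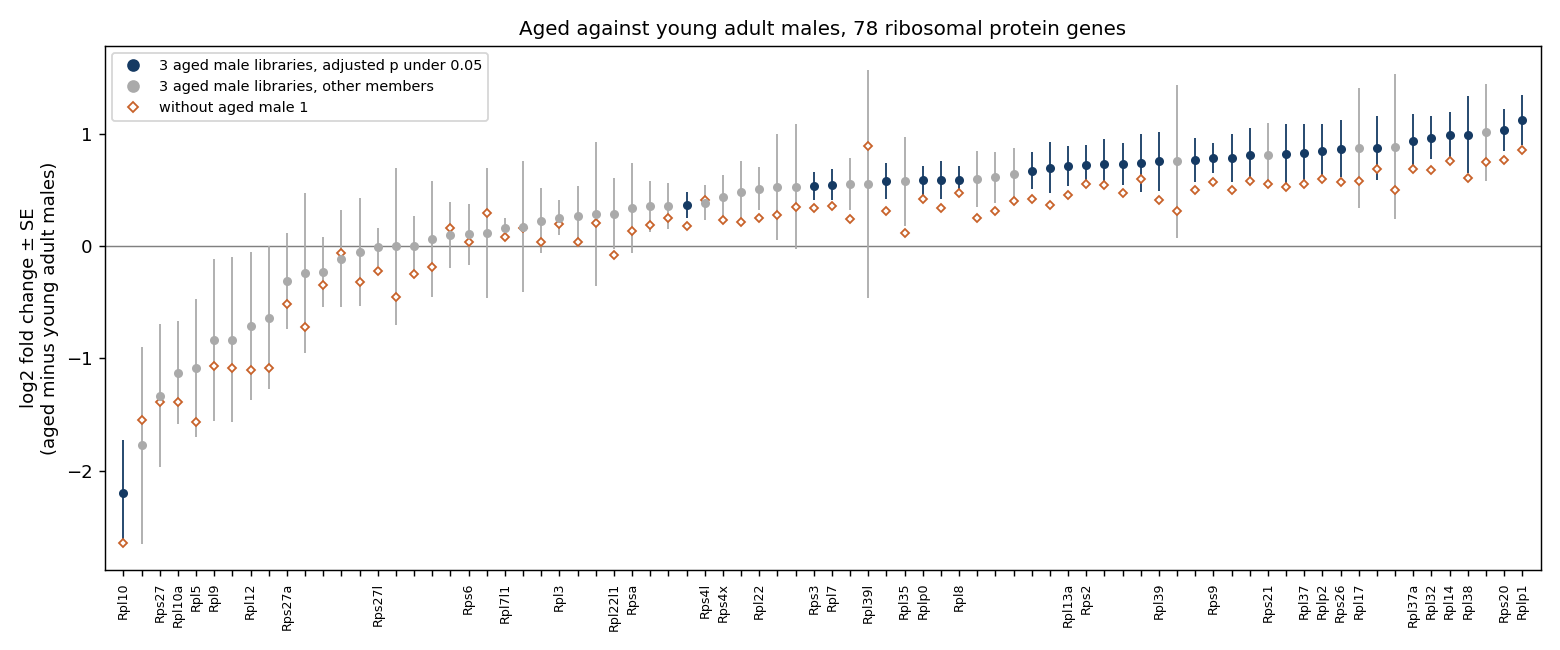
Log2 fold changes of aged minus young adult males with their SE for all 78 members in rank order (circles, dark where the adjusted p is under 0.05), with symbols for members described in the text, beside the same value without aged male 1 (diamonds). Rpl10 lies lowest at -2.20 and Rplp1 highest at 1.12, and without aged male 1 the median of the members is 0.30.

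Without aged male 1 the count of called members fell from 31 to 10, all of them among the 31, and the median log2 fold change from 0.54 to 0.30. The 9 still higher were Rpl14, Rpl32, Rpl8, Rplp0, Rplp1, Rps2, Rps20, Rps3 and Rps9, and Rpl10 was still lower. Without young adult male 2 the count was 17. With every library scaled to the same total, which lowers the median of all genes by 0.11 here, 18 members were higher and 1 lower, and a fit of only these 6 libraries called 9 higher and 1 lower. The neutrophil markers had 0 reads in all young adult male libraries. They summed to 3486, 2.96 and 5496 in aged males 1, 2 and 4. The median deviation of the members there was 0.69, 0.09 and -0.04. Young adult males 2 and 3 had summed levels of 94641 and 85994 for genes known to rise during tissue dissociation (16 of 20 in the table), against 51856 in young adult male 4 and 40971 to 51323 in the other 19 libraries. In this comparison 8 of the 15 tested genes of that list were lower and none was higher. The share of ribosomal protein reads was 0.166%, 0.182% and 0.158% in young adult males 2, 3 and 4. The part of the neutrophil markers and of the dissociation genes in the result was not tested.

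The step from middle to old age in males was tested on the same 3 aged libraries. In aged against middle-aged males 17 members were higher and 2 lower, against a background of 7.71% higher and 7.72% lower. Rplp1 rose by 0.96 ± 0.20, Rplp2 by 0.81 ± 0.22, Rpl37a by 0.78 ± 0.22 and Rps9 by 0.61 ± 0.12. Rpl10 fell by 1.68 ± 0.42 and Rpl10a by 1.24 ± 0.41 on the log2 scale. Rpl10a, a protein of the mobile L1 stalk at the tRNA exit, had 89.2, 105, 38.3, 103 and 83.9 normalized counts in the 5 middle-aged male libraries and 47.6, 17.8 and 41.7 in aged males. Without aged male 1 only Rpl8, Rplp1, Rps9, Rpl10 and Rpl10a still passed, and without middle-aged male 2 there were 10 calls. At the same total, which lowers the median of all genes by 0.14, 8 were higher and 2 lower, and a fit of only these 8 libraries called 5 higher and 1 lower. Of the markers of other cell types, 5 of 5 tested neutrophil genes, 1 of 1 monocyte gene, 2 of 5 genes of border-associated macrophages and 1 of 3 endothelial genes were higher in aged males and none was lower. Neutrophil sums were at most 1.73 in the middle-aged males, and 3486, 2.96 and 5496 in aged males 1, 2 and 4. Monocyte sums were at most 36.7 in the middle-aged males, and 272, 3.95 and 736 in the same aged males. Sums of border-associated macrophage markers were 4748 to 5887 in the middle-aged males and 6882 to 7333 in aged males. The part of these lists in the result was not tested.

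No member passed in middle-aged against young adult males (limma), where the background was 1.36% higher and 0.406% lower. At an unadjusted p under 0.05 there were 4 members, and edgeR and DESeq2 on the recovered reads also called 0. The median log2 fold change was 0.16, and 61 of 78 members were positive.

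Aging in females moved few members past the threshold. In aged against middle-aged females Rpl3 and Rpl39 were higher and none was lower, against a background of 0.924% higher and 0.454% lower. Rpl3, a large subunit protein near the catalytic centre, had 259, 231, 265, 278 and 265 normalized counts in middle-aged females and 419, 387 and 364 in aged females. These groups did not overlap, and the log2 fold change was 0.59 ± 0.14 (limma adjusted p = 0.0330). Rpl39 had 273, 254, 364, 188 and 290 normalized counts in middle-aged females and 642, 478 and 431 in aged females, a rise of 0.92 ± 0.23 (adjusted p = 0.0473). The median over the members was 0.35, with 69 of 78 positive and 26 at an unadjusted p under 0.05. Both calls were lost when aged female 1, 2 or 3 or middle-aged female 2, 3 or 6 was left out, Rpl3 without middle-aged female 4 and Rpl39 without middle-aged female 5.

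Between aged and young adult females no member passed in limma, with a background of 7.26% higher and 4.89% lower. The median log2 fold change was 0.17 and 6 members had an unadjusted p under 0.05. DESeq2 on the recovered reads called 1 higher and 1 lower, and edgeR called 0. In middle-aged against young adult females no member passed either, with a background of 5.94% higher and 3.54% lower, and edgeR and DESeq2 called 0. The median there was -0.20, with 67 of 78 members negative and 6 at an unadjusted p under 0.05.

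**Figure D3:**
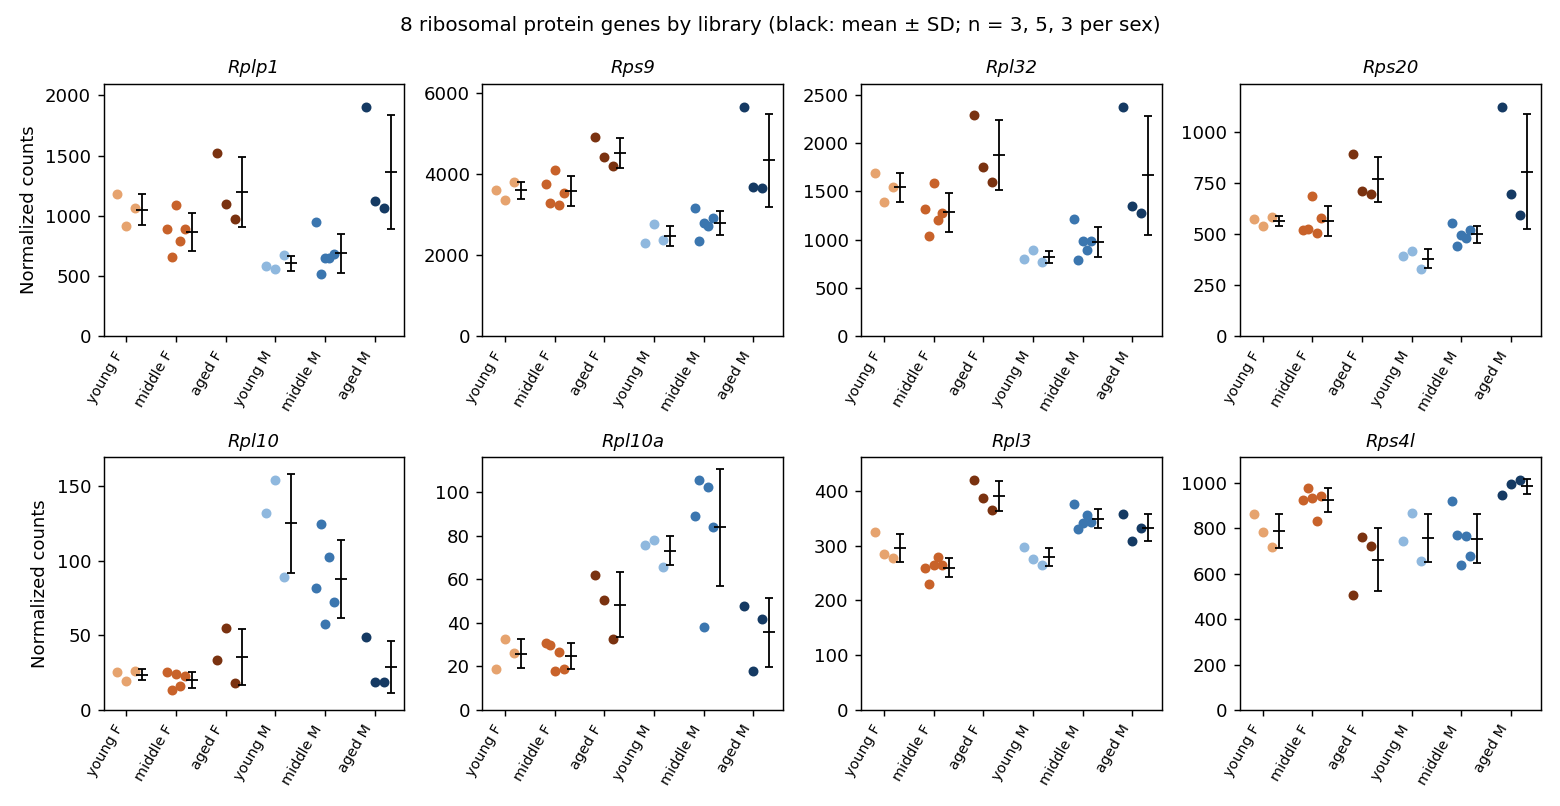
Normalized counts of 8 members in each library (coloured points) with the group mean ± SD (black), for young adult, middle-aged and aged females (F) and males (M). Rps9 is at most 3154 in the 8 young adult and middle-aged male libraries and at least 3231 in the other 14, and Rpl10 is at least 57.5 in those 8 and at most 55.1 in the others. All other members overlapped between these sets of libraries, and the share of all genes without overlap was not counted.

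Among the members, the sexes differed most in young adults, while over all tested genes more differed at middle age (10.5% higher and 11% lower). Compared with young adult males, young adult females had 19 members higher and 2 lower, against a background of 7.92% higher and 8.25% lower. This comparison shares its 3 young adult male libraries with the aged against young adult males, so the values stand side by side and are not independent. Rpl37a had 479, 413 and 491 normalized counts in young adult females and 234, 232 and 229 in young adult males, a difference of 0.99 ± 0.24 on the log2 scale (limma adjusted p = 0.00653). Rps21 was higher by 0.96 ± 0.29, Rpl37 by 0.94 ± 0.26, Rpl32 by 0.91 ± 0.19 and Rplp2 by 0.89 ± 0.25. In the aged male comparison Rpl37 had 0.83 ± 0.26, Rpl32 0.97 ± 0.19 and Rplp2 0.85 ± 0.25. All 21 called members had groups that did not overlap. So did 43 members higher and 8 lower in females in all, called or not, against 16.2% of all tested genes higher and 16.3% lower.

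Rpl10 and Rpl10a were the members lower in young adult females. Rpl10 had 25.7, 19.2 and 26.2 normalized counts in young adult females, against the 89.0 to 154 of young adult males, a difference of -2.33 ± 0.47 (limma adjusted p = 0.00166). Rpl10a differed by -1.49 ± 0.45 (adjusted p = 0.0259). With every library scaled to the same total, which lowers the median of all genes by 0.15 in this comparison, 8 members were higher and 2 lower. Border-associated macrophage markers (5 of 9 in the table) summed to 3154 to 3681 in young adult females and 6010 to 7298 in young adult males. Of the dissociation genes 1 was higher and 5 were lower in females, and the part of either list was not tested. The count of members fell to 10 without young adult female 1 and to 12 without young adult female 4 or young adult male 2.

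At middle age the members called did not exceed the background. Middle-aged females had 3 of 78 members higher and 8 lower than middle-aged males. These counts were under the background of 10.5% higher and near that of 11% lower. Among the lower members were Rpl10 (-2.05 ± 0.37), Rpl9 (-1.98 ± 0.56), Rpl12 (-1.73 ± 0.51), Rps27 (-1.73 ± 0.49), Rpl10a (-1.67 ± 0.35), Rpl17 (-1.16 ± 0.41) and Rpl3 (-0.43 ± 0.12). Higher were Rpl13a (0.47 ± 0.14), known as a translational repressor after interferon gamma, Rps9 (0.36 ± 0.10) and Rpl7l1 (0.21 ± 0.07). With every library scaled to the same total, which lowers the median of all genes by 0.16, none was higher and 9 were lower. Without middle-aged male 2 the count was 7. Endothelial markers (5 of 5 in the table) summed to 9973 to 11561 in the 8 young adult and middle-aged male libraries and 13067 to 16039 in the other 14, and their part was not tested.

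Aged females and aged males were not told apart by any member in limma, where 0.191% of all genes were higher and 0.239% lower in females. Only 1 member had an unadjusted p under 0.05, edgeR called 0 and DESeq2 called 1 lower. The median log2 difference was 0.05, and it was 0.29 without aged male 1.

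The change with age was compared between the sexes as females minus males. On the male side, changes to old age cross the split in normalized totals, and those on the female side do not. From middle to old age Rpl10 (2.37 ± 0.60, limma adjusted p = 0.0174), Rpl10a (2.16 ± 0.58, adjusted p = 0.0235) and Rpl3 (0.66 ± 0.20, adjusted p = 0.0431) had a higher change in females. Rps4l had a lower one (-0.90 ± 0.19, adjusted p = 0.00615). With 3 of 78 members higher and 1 lower, the counts were near the background of 3.79% higher and under that of 3.38% lower. Rps4l had 926, 977, 935, 834 and 941 normalized counts in middle-aged females and 504, 762 and 720 in aged females, but 918, 769, 639, 767 and 677 in middle-aged males and 949, 994 and 1011 in aged males. Libraries of middle-aged and aged animals did not overlap in either sex, lower with age in females and higher in males. Rps4l passed with any library left out, Rpl3 passed in only 2 of the 16 such fits (without aged male 1 or middle-aged male 3), Rpl10 was lost without aged female 2 or aged male 4, and Rpl10a without aged female 1 or aged male 2.

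Over the full age span Rpl10 alone differed between the sexes in limma (2.64 ± 0.67, adjusted p = 0.0339). That is 1 of 78 members higher, near the background of 1.48%, and none lower, against 1.31%. DESeq2 on the recovered reads called 1 higher and 3 lower. The median difference was -0.42 on the log2 scale over the members and 0.02 over all tested genes, with 59 of 78 members negative and 18 at an unadjusted p under 0.05. Between young adult and middle age no member did (limma), with 0.263% of all genes higher and 0.127% lower, 11 members at an unadjusted p under 0.05, and 0 called by edgeR or DESeq2. Rpl10 no longer passed without young adult female 3 or 4, aged female 1 or 2, young adult male 2 or 3, or aged male 2 or 4. For the members other than Rpl10, the difference between the sexes in the change from young adult to aged did not pass in limma.

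Members differed widely in level and in how far their reads can be told from those of other genes. Nearly all ribosomal protein genes have processed pseudogenes, intronless copies scattered over the genome. Here 76 of 78 members shared a 50-base window with at least 1 annotated pseudogene transcript (GENCODE vM21). Per kilobase of transcript, mean normalized counts ran from 7.42 for Rpl5 to 4642 for Rps9. The 33 members with under 50% of their windows shared had a median of 586 per kilobase, and the 45 with more had 84.7. This division and one at a mean of 60 normalized counts were chosen after the values were seen.

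**Figure D4:**
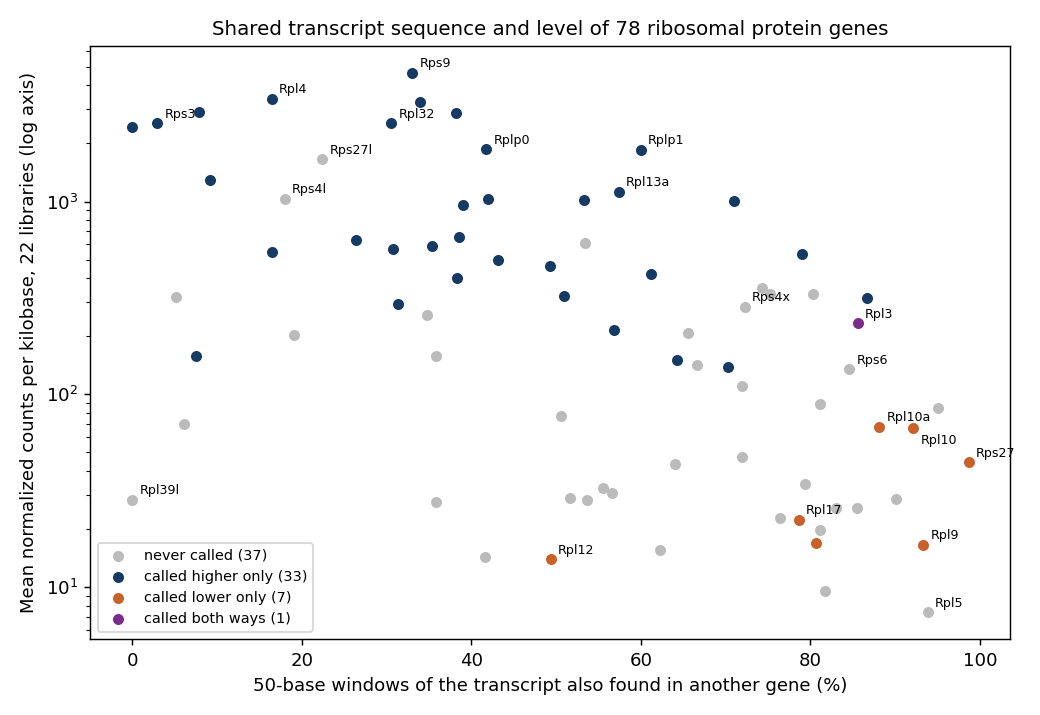
Percent of the 50-base windows of each member's transcript that also occur in another gene's transcript (x axis), against its mean normalized counts per kilobase over 22 libraries (y axis, log scale). Colours give the direction of calls over the 9 comparisons of groups: 33 members were called only higher, 7 only lower, and Rpl3 both ways.

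All calls in the lower direction between groups, apart from Rpl3, came from the 26 members with a mean under 60 normalized counts, and no member of that set was called higher in any comparison of groups. Rpl10, just under that line with 53.7, shared 92.1% of its windows, Rpl10a 88.1%, Rpl9 93.3%, Rps27 98.7%, Rpl17 78.7% and Rpl12 49.4%. Rpl35, just above the line, had 80.1. The 52 members with a mean of 60 or more had 30 higher and 0 lower in aged against young adult males, with a median log2 fold change of 0.61. Rps3, with 2.96% of its windows shared, was among them with 0.54 ± 0.12. How reads that match several places were counted is not stated, and the part of shared sequence in the low values was not tested.

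Of the 5 measured paralogs with a symbol of their own, 3 had a higher level per kilobase than the usual gene. Rps27l had 1654 normalized counts per kilobase over all libraries and Rps27 44.7. Rpl7l1 had 1293 and Rpl7 1021, while Rpl22l1 had 209 and Rpl22 318. Rpl39l, whose transcript shared no window, had 28.4 against 547 for Rpl39. Rps4l, a single-exon locus on chromosome 6 (148354656 to 148355598) that is annotated as a transcribed processed pseudogene, had 1035 per kilobase, against 285 for its counterpart Rps4x. Rps27a, which is made as a fusion with ubiquitin, and Rpsa, also known as a laminin receptor, had 47.1 and 28.4 per kilobase and passed in no comparison. Transcript length is that of the annotated main transcript, and its choice affects these levels. Shared windows were 98.65% for Rps27 and 22.44% for Rps27l, 72.25% for Rps4x and 17.97% for Rps4l, and 53.32% for Rpl7 and 9.19% for Rpl7l1. They were 5.2% for Rpl22, 65.61% for Rpl22l1 and 16.52% for Rpl39. The part of shared sequence in the order of these pairs was not tested.

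Other genes of the translation machinery were read against the same background of 9.31% higher and 7.62% lower. In aged against young adult males 7 of 20 other TOP genes were higher and none lower, with a median log2 fold change of 0.39. Their summed level was 31423, 33023 and 45535 in the aged male libraries, in rising order, and 23473 to 27064 in young adult males. Fits without aged male 1 or with rescaled libraries are not given for these other genes. Eef1a1, the elongation factor that brings tRNA to the ribosome, rose by 0.85 ± 0.12 (limma adjusted p = 5.25e-05). Of 32 initiation factors 3 were higher and 3 lower, which is near the background in both directions. The helicase Eif4a2 was among them with a change of -1.43 ± 0.18 (limma adjusted p = 8.19e-06). Of 61 ribosome biogenesis genes 3 were higher and 4 lower, led by Mdn1, a factor that releases large subunit precursors, with -2.30 ± 0.42. None of 77 mitochondrial ribosomal protein genes passed, and their median was -0.06.

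Among 26 genes of the mTOR pathway and other regulators of the TOP tract, 1 was higher and 4 were lower in the same comparison. Mtor had a change of -1.12 ± 0.33 (limma adjusted p = 0.0202) and the S6 kinase gene Rps6kb2 one of -1.16 ± 0.27 (adjusted p = 0.00483). Nuclear genes of oxidative phosphorylation, which like the members are mostly short, were higher in 13 of 73 cases and lower in none, and in 19 and 0 between young adult females and males. The median member transcript was 784.5 bases long and that of other tested genes 2796. The other 891 tested genes under 1000 bases had a median of -0.02 in aged against young adult males, with 83 higher and 53 lower.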

How the data were processed

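The deposited signal values are read counts over a library size factor, as tested on the values: 100% are whole multiples of the value of 1 read within 0.01 reads. Per the submitters' processing notes, STAR 2.5.2 (genome mm10), Trim Galore 0.4.3, FastQC 0.67, MultiQC 1.5.0, R 4.1.0 and DESeq2 1.32.0 were used. Libraries were made with the SMARTer v4 and Nextera XT kits, per the labels' protocols. Read counter and annotation: not given in the sources used here.

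limma 3.58.1 (R 4.3.3, trended empirical Bayes) was fitted to log2(normalized count + 1) with 6 group means over 12552 genes, so low genes' changes are understated. Two-sided p-values were adjusted (Benjamini-Hochberg) within each of 12 comparisons. Up to 10 called members per direction, paralogs, stalk genes and members at the extremes were named; some are not reported here. Alternatives included edgeR 4.0.16 and DESeq2 1.42.0 on the recovered reads. Scripts were tested on simulated data. Shared windows came from GENCODE vM21 transcripts and promoters from RefSeq GRCm38.p6. The members and gene lists were chosen with earlier results of these data known. Replicate numbers did not pair libraries: deviations correlated by 0.00706 on average for the same number and -0.00162 for different numbers.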

Additional observations from a re-analysis of the deposited data

Results flagged for a closer look

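Rps21 in middle-aged male 1 had 292.8 normalized counts, far above the other 4 libraries of its group, which lay at 159 to 185. It was the only such value among 54 groups of values examined, and chance alone gives about 1 in 20. Only the middle-aged groups were large enough to be examined. The young adult and aged groups, with aged male 1 among them, were not. The change with age differed between the sexes for 4 members from middle to old age, as log2 values of females minus males. These were 2.37 for Rpl10, 2.16 for Rpl10a, 0.66 for Rpl3 and -0.90 for Rps4l. From young adult to aged the difference for Rpl10 was 2.64. In both spans the number of members called was near or under the share of all tested genes called. Rpl10 and Rpl10a had fewer than 60 normalized counts on average and shared 92.1% and 88.1% of their 50-base windows with other genes. Rps4l shared 17.97%.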

How the results depend on the processing

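Counts of called members depended on the processing. The share of all tested genes called is not set beside most of these counts. They show how the number of calls moved, and not whether the members stood apart from other genes. The 53 values of single members, all taken from those past the threshold, gave 1072 refitted values. Of these 840 stayed past the threshold in the same direction, 232 missed it and 0 changed sign. A change of sign was unlikely from the start, because the values were picked for passing and refitted on mostly the same libraries. Aged against young adult males (31 in the report) gave 19 with libraries set to 1 common total, 19 when that total left out the members, 10 with only the groups compared, 9 without 3 of the 4 libraries that carried neutrophil markers (aged male 1, aged female 1, middle-aged female 2), and 10 to 38 when 1 library was left out. Aged against middle-aged males (19) gave 10, 10, 6, 5 and 5 to 23 in that order, and 30 with the trend of length and GC content removed. Young adult females against males (21) gave 10 under both rescalings, 37 with the trend removed and 10 to 17 with 1 library left out. Middle-aged females against males (11) gave 23 with the trend removed and 7 to 15 with 1 library left out. Aged against middle-aged females (2) gave 1 with a pseudocount of 0.25, no filter, either rescaling or only the groups compared, 0 without the 3 libraries and 0 to 1 with 1 left out. Middle-aged against young adult females (0) gave 2 with the trend removed, 1 with only the groups compared, 1 without the 3 libraries and up to 1 with 1 left out. Aged against young adult females (0) gave 1 with TMM factors, 2 with the trend removed, 2 in DESeq2 and 1 with only the groups compared, and aged females against males (0) gave 1 in DESeq2. The difference between the sexes gave 2 to 4 from middle to old age (4) with 1 library left out. Over the full span (1) it gave 0 without the filter, 0 with only the groups compared, 10 with the trend removed, 4 in DESeq2 and 0 to 1 with 1 left out. The replicate block, for numbers that did not pair the libraries, gave 19 for aged against young adult males, 0 for aged against middle-aged females, 2 and 0 for the differences between the sexes from middle to old age and over the full span, and 7 higher and 5 lower for middle-aged females against males. The cause of these changes was not tested. The count test in edgeR on the recovered reads, 100% of which came out whole, called 1989 of all genes and 33 members in aged against young adult males. Members with few reads, such as Rpl9 with 304 in all 22 libraries, limit what depth can show.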
